A study of Homo sapiens with 95 samples.

Results

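CDKN1A, MDM2, GDF15, BTG2, FAS, TP53I3, ZMAT3, RRM2B and AEN are 9 genes that the transcription factor p53 is known to activate, and they are described here by genotype and chemical in AALE cells. The 9 genes were chosen by name out of 27978 genes counted in each of 95 samples. No cut on a measured value was used, but earlier results of these data were known when they were chosen. The assay was sparse full-length (SFL) RNA sequencing, in which reads from the whole length of many pooled, barcoded RNAs are counted per gene at low depth. AALE is an immortalized human bronchial epithelial cell line, and 8 derivatives of it were each exposed to 4 treatments in triplicate, except that FGFR1 cells with CSC had 2 samples. One arm held CRISPR knockouts of FAT1 and CDKN2A, with cells given the pSpCas9-EGFP plasmid but no guide as control (GFP). The other arm held overexpression of NRF2 (encoded by NFE2L2), FGFR1, NRG1 and PIK3CA, with a vector carrying only the reporter HcRed as control (HCRED). The treatments were the solvent DMSO, cigarette smoke condensate (CSC) at 24 μg/ml, benzo[a]pyrene (BaP) at 173 μM and the tobacco nitrosamine NNK at 490 μM, so that the dose of no chemical was matched to that of another. The replicates are described as biological, but how long the cells were exposed, and whether each replicate was a culture of its own, is not given in the sources used here, so p-values measure the spread between these samples.

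p53 is a transcription factor that is held low by the ubiquitin ligase MDM2, itself a p53 target, and that accumulates when DNA is damaged. Its targets arrest the cell cycle, repair DNA, supply nucleotides and prepare cells for apoptosis, and the ARF protein of the CDKN2A locus blocks MDM2. As background on the model, AALE cells were immortalized with the early region of the virus SV40, whose large T antigen binds p53, a feature that all 8 genotypes share. BaP is converted by CYP1 enzymes, and NNK by other cytochrome P450 enzymes, to products that form DNA adducts.

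The p53 response element is 2 adjacent half-sites of 10 bases, each centred on a core of 4 bases (CATG and the like, with A or T at both inner positions). The GRCh37 (hg19) genome, the build of the counts, was searched on both strands within 3 kb of each gene's transcript start in the GENCODE annotation of that build, with both cores exact, no spacer and at most 2 mismatches elsewhere. No other motif was searched. Of the 24309 genes with an annotated start, 2.94% held such an element, and 7 of the 9 members did. Members were named as known targets, so their count is a description only. The sequences below show the element of the members discussed most, from 5′ to 3′, with both cores in capitals:
CDKN1A, chr6:36644226-36644245, forward strand: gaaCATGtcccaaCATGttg
GDF15, chr19:18496118-18496137, forward strand: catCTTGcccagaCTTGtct
BTG2, chr1:203272770-203272789, forward strand: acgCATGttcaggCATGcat
FAS, chr10:90751066-90751085, forward strand: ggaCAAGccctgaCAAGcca
ZMAT3, chr3:178787976-178787995, reverse strand: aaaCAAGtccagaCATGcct
AEN, chr15:89164537-89164556, forward strand: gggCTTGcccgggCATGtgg

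The CDKN1A element lay 2256 bases upstream of the transcript start used, where the annotated span of the gene, longer transcripts included, begins (chr6:36644237-36655114). That of BTG2 (gene at chr1:203274619-203278730) was 1868 bases upstream, that of AEN (chr15:89164568-89175512) 25 bases upstream, and that of GDF15 (chr19:18485541-18499986) 841 bases upstream of the start used but inside the span of a longer transcript. The elements of FAS (chr10:90750414-90775542) and ZMAT3 (chr3:178677909-178790003) were intronic, 661 and 1611 bases downstream of the start. ZMAT3 had no mismatch, a match that 0.0823% of genes held, and the other 5 elements printed had 2. RRM2B held an intronic element with 1 mismatch, 2111 bases downstream. No element was found in these windows of MDM2 (chr12:69201957-69239324) or TP53I3 (chr2:24300303-24308731), which says only that these letters were not there.

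Sequencing was shallow, with 287446 to 2116383 counts a sample (median 934235), so 3 counts corresponded to 1.42 to 10.4 CPM, the count scaled to library size. Median depth was 1051108 counts in DMSO, 825587 in CSC, 836088 in BaP and 753703 in NNK, and its part in the results was not tested. Each targeted gene separated its 12 (FGFR1: 11) samples from the 12 control samples, for example CDKN2A at 35.1 to 66.8 CPM in its knockout against 79.1 to 147 in GFP, and FAT1 at 66.5 to 129 against 260.0 to 451. CYP1A1, which aryl hydrocarbons induce, had a median of 7.55 CPM in DMSO, 388 in CSC, 360.1 in BaP and 52.3 in NNK. Basal epithelial markers summed to 4386 to 12090 CPM in every sample, endothelial markers to at most 3.92 CPM and leukocyte markers to at most 38.8 CPM. Nearly all of the leukocyte sum was CD68, with 1397 counts in all samples together, against 7 of PTPRC and 0 of CD3E. Fibroblast markers, mostly COL1A1, summed to 8.18 to 66.9 CPM, with a median of 17.0 in DMSO, 34.1 in CSC, 27.3 in BaP and 32.1 in NNK. The leukocyte sum, which is thus mostly CD68, had medians of 11.9, 23.2, 13.7 and 11.7 CPM in the same order. The part of either list in the results was not tested. In such bulk samples, fewer responding cells and less RNA per cell cannot be told apart.

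The members differed widely in level. On the scale of CPM per kb of transcript, which allows genes to be compared, the mean over the 24 DMSO samples was 72.5 ± 25.3 (SD) for CDKN1A, 33.6 ± 6.47 for MDM2, 25.4 ± 7.87 for TP53I3, 19.7 ± 3.80 for RRM2B and 17.3 ± 4.53 for FAS. ZMAT3 (7.71 ± 2.32), BTG2 (7.64 ± 2.43), AEN (4.61 ± 1.84) and GDF15 (3.41 ± 2.61) were lower. Neighbours in this order other than CDKN1A and the next gene, and FAS and ZMAT3, differed by less than the sum of their SDs. In reads, CDKN1A had 76 to 662 counts a sample (median 202) and MDM2 64 to 583 (median 224), whereas AEN had 2 to 35 (median 13), BTG2 2 to 49 (median 15) and GDF15 0 to 41 (median 6), so values of the last 3 genes carry the largest counting error.

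**Figure D1:**
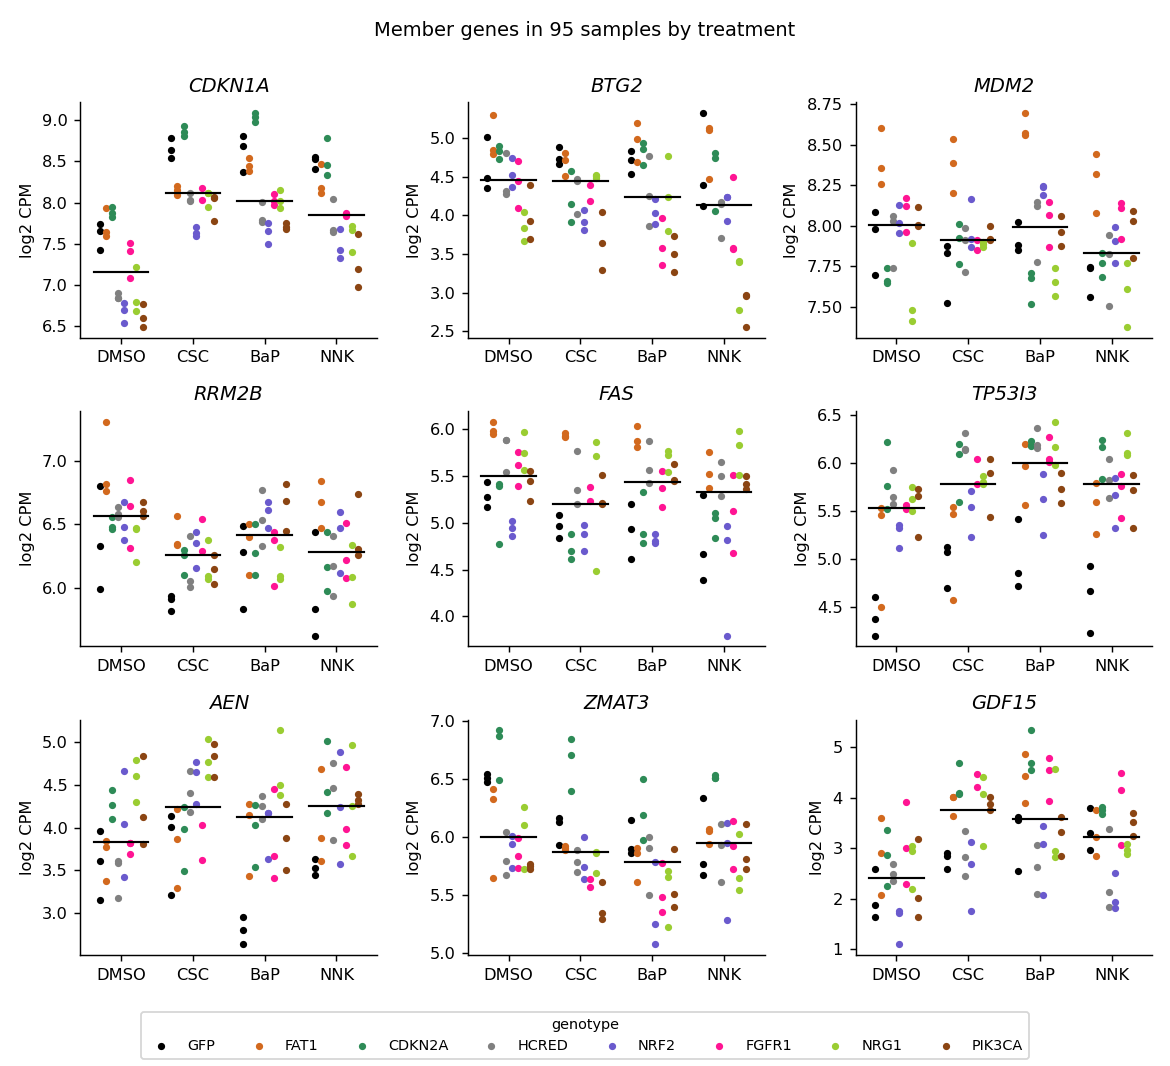
Level of each of the 9 genes in every sample, on a log2 CPM axis, grouped by treatment along the horizontal axis and coloured by genotype, with a bar at the median over the samples of a treatment. The CDKN1A median moves from 141 CPM in DMSO to 275 in CSC, 257 in BaP and 228 in NNK, and the GDF15 median from 3.20 CPM to 11.3, 9.87 and 7.21.

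All 3 chemicals raised CDKN1A and GDF15, and TP53I3 rose by a smaller amount. However, the rises of TP53I3 and that of GDF15 with NNK no longer passed the test once a trend with GC content and transcript length was removed. That trend is described below and is called the GC trend for short. CDKN1A encodes the cyclin-dependent kinase inhibitor p21, which arrests the cell cycle. It was at 88.0, 141 and 245 CPM (lowest, median and highest of 24 samples) in DMSO, 191, 275 and 487 in CSC, 178, 257 and 541 in BaP, and 124, 228 and 437 in NNK. The pooled ranges overlapped, since genotypes started from different levels, but within each of the 8 genotypes every exposed sample was above every DMSO sample for each chemical. Changes over all genotypes were fitted with limma-voom, a linear model of log2 CPM weighted by the precision of the counts, with genotype and treatment as terms. Libraries were scaled by TMM factors, and a p adjusted over all genes tested passed at 0.05 or below. CDKN1A rose by 0.99 on the log2 scale with CSC (SE 0.045, adjusted p = 2.76e-43, 1.98-fold), by 0.97 with BaP (SE 0.045, adjusted p = 1.18e-41, 1.96-fold) and by 0.68 with NNK (SE 0.046, adjusted p = 7.3e-27, 1.60-fold). A gene lay wholly above DMSO within a genotype in 16% of tests with CSC, 13% with BaP and 12.7% with NNK, taken over all genes and genotypes.

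GDF15 encodes a secreted stress cytokine, and its counts were the lowest of the 9 genes. The lowest, median and highest values were 0, 3.20 and 13.0 CPM in DMSO, 1.23, 11.3 and 23.5 in CSC, 2.06, 9.87 and 38.2 in BaP, and 1.39, 7.21 and 20.4 in NNK. It rose by 1.46 on the log2 scale with CSC (SE 0.21, adjusted p = 1.5e-09), by 1.55 with BaP (SE 0.21, adjusted p = 3.13e-10) and by 0.93 with NNK (SE 0.22, adjusted p = 0.00013), all in limma-voom. TP53I3, an oxidoreductase linked to oxidative stress in apoptosis, had medians of 44.1, 53.1, 62.0 and 52.97 CPM in DMSO, CSC, BaP and NNK, with overlapping ranges. Its log2 fold changes were 0.32 (SE 0.096, adjusted p = 0.00278), 0.50 (SE 0.096, adjusted p = 4.93e-06) and 0.29 (SE 0.097, adjusted p = 0.008). With the GC trend removed they were 0.0042 (adjusted p = 0.979), 0.19 (adjusted p = 0.128) and 0.0049 (adjusted p = 0.982). AEN, a p53-induced nuclease of apoptosis, was past the threshold with CSC alone, at 0.38 (SE 0.16, adjusted p = 0.0304), and that call was lost when GFP CSC replicate 2, HCRED CSC replicate 2, HCRED DMSO replicate 1 or NRF2 DMSO replicate 2 was left out (adjusted p up to 0.068), and when the GC trend was removed (0.21, adjusted p = 0.310).

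MDM2, the ubiquitin ligase that restrains p53, was not past the threshold with any chemical. Its median was 254 CPM in DMSO, 239 in CSC, 252 in BaP and 225 in NNK, and its ranges overlapped throughout. The 95% intervals of its log2 change were -0.12 to 0.05 with CSC, -0.01 to 0.16 with BaP and -0.16 to 0.01 with NNK. CDKN1A, in the same samples, had a lower bound of 0.90 with CSC.

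The other members, RRM2B, ZMAT3, FAS and BTG2, were called lower with some or all of the chemicals. For RRM2B, ZMAT3 and FAS this depended on the correction for GC content and length described below. RRM2B, the p53-inducible subunit of ribonucleotide reductase, had a median of 92.4 CPM in DMSO and 74.2 in CSC, 83.3 in BaP and 75.8 in NNK. It fell by 0.38 on the log2 scale with CSC (SE 0.063, adjusted p = 1.31e-07), by 0.15 with BaP (SE 0.063, adjusted p = 0.0404) and by 0.28 with NNK (SE 0.064, adjusted p = 0.000125). In limma-voom with the GC trend removed it stood at 0.013 (adjusted p = 0.903), 0.165 (adjusted p = 0.0362) and 0.074 (adjusted p = 0.475). ZMAT3, an RNA-binding protein that regulates splicing, had medians of 62.1 CPM in DMSO, 56.4 in CSC, 53.04 in BaP and 59.6 in NNK. It fell by 0.23 with CSC (adjusted p = 0.000817), by 0.38 with BaP (adjusted p = 1.57e-07) and by 0.14 with NNK (adjusted p = 0.0479), with an SE of 0.062 to 0.064. With that trend removed ZMAT3 stood at 0.087 with CSC and 0.134 with NNK, neither past the threshold. FAS, the death receptor, had medians of 43.1 CPM in DMSO, 34.8 in CSC, 41.2 in BaP and 38.0 in NNK. It fell by 0.24 with CSC (SE 0.080, adjusted p = 0.00634) and by 0.23 with NNK (SE 0.082, adjusted p = 0.0126), and stood at -0.10 with BaP (SE 0.080, adjusted p = 0.317). With the trend removed FAS stood at 0.072 with CSC and 0.045 with NNK, neither past the threshold. BTG2, an antiproliferative regulator of mRNA decay, fell by 0.45 with NNK (SE 0.11, adjusted p = 0.000139), from a median of 19.9 CPM in DMSO to 15.5, and was at -0.17 with CSC (adjusted p = 0.137) and -0.16 with BaP (adjusted p = 0.189).

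By count, 7 of the 9 genes passed the limma-voom threshold with CSC (4 higher, 3 lower), against 53.6% of all 14384 genes tested (27.1% higher, 26.6% lower). With BaP 5 passed (3 higher, 2 lower) against 48.7% (24.7% higher, 24.1% lower), and with NNK 7 (3 higher, 4 lower) against 49.7% (24.6% higher, 25% lower). The members' median log2 change was -0.04 with CSC, 0.03 with BaP and -0.08 with NNK, beside medians of 0.0035, 0.012 and 0.0012 over all genes. In this fit the members thus had no common direction with any chemical, and their counts with the GC trend removed, which differ, are given below. The RRM2B call with BaP was lost without 1 of 6 samples, 1 at a time, and the ZMAT3 call with NNK without 1 of 19. ZMAT3 with NNK also missed the threshold with edgeR (adjusted p = 0.0542) and with DESeq2 (adjusted p = 0.0628).

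Sequence composition moved with treatment. Each gene's log2 level was taken as a deviation from its mean over all 95 samples and set against transcript GC content. The slope, per 10 points of GC, was negative in every DMSO sample (-0.40 to -0.096, median -0.21). Its median was 0.073 in CSC, 0.083 in BaP and 0.074 in NNK. These slopes are relative to that mean, so they compare treatments and give no absolute trend of a library. The members that rose had a GC content of 62.9% (GDF15), 59.4% (TP53I3), 57.3% (CDKN1A) and 55.7% (AEN), and those that fell had 50.5% (BTG2), 39.1% (FAS), 38.2% (ZMAT3) and 35.1% (RRM2B). After the trend with GC content and length was removed from each sample, CDKN1A still rose by 0.74 with CSC (adjusted p = 1.66e-38), 0.72 with BaP (adjusted p = 1.69e-36) and 0.44 with NNK (adjusted p = 6.36e-18). GDF15 rose by 1.04 with CSC (adjusted p = 1.02e-05) and 1.122 with BaP (adjusted p = 3.63e-06), and was at 0.54 with NNK (adjusted p = 0.0593). MDM2, with a GC content of 39.5%, then rose with all 3 chemicals, by 0.25 (adjusted p = 4.44e-08), 0.35 (adjusted p = 2.46e-13) and 0.18 (adjusted p = 0.000502). None of the falls of RRM2B, ZMAT3 and FAS passed the threshold any longer, nor did any rise of TP53I3 or AEN. RRM2B was then higher with BaP (0.165, adjusted p = 0.0362), and the BTG2 fall with NNK stayed at -0.48 (adjusted p = 0.000217). With the trend removed, 3 members were called higher and 0 lower with CSC (32.2% of all genes called), 4 and 0 with BaP (23%), and 2 and 1 with NNK (15.3%). GC content and length were removed together, and their parts were not told apart. Transcript length was 1.2 kb for GDF15, 1.65 for TP53I3 and 2.12 for CDKN1A, against 4.77 for RRM2B, 7.49 for MDM2 and 8.94 for ZMAT3. FAS, BTG2 and AEN lay between. Whether the trend came from the libraries or from the exposed cells was not tested.

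**Figure D2:**
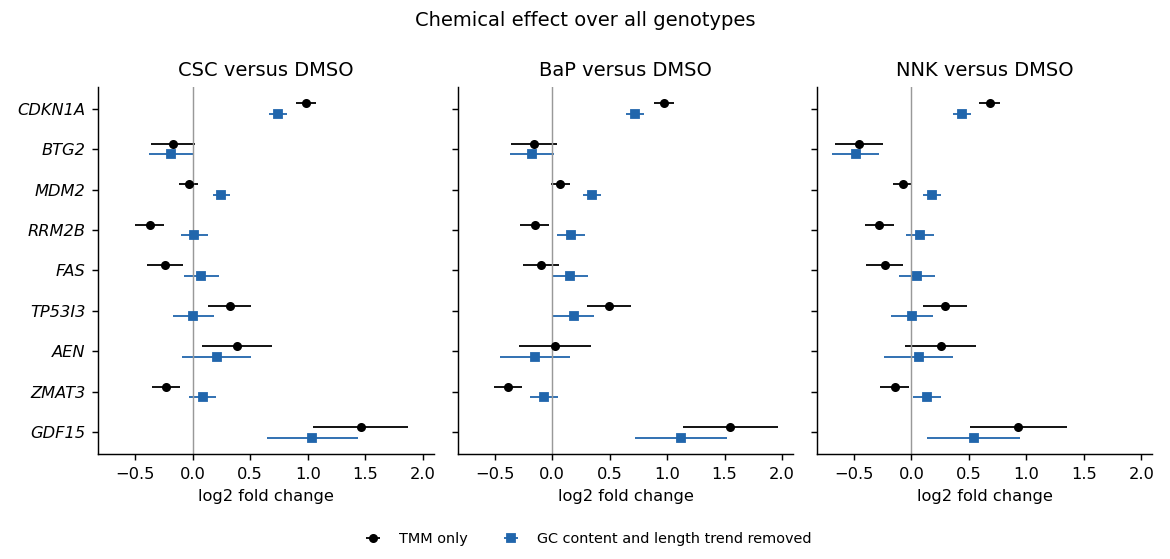
Log2 fold change of each of the 9 genes against DMSO over all genotypes for CSC, BaP and NNK, as black circles from the TMM-scaled fit and blue squares with the trend on GC content and length removed, each with its 95% interval. CDKN1A and GDF15 lie above 0 on both scales, MDM2 lies near 0 on the first and above 0 on the second (0.25, 0.35 and 0.18), and RRM2B with CSC moves from -0.38 to 0.013.

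The chemicals were set against each other at their single, unmatched doses. CSC and BaP gave CDKN1A values that differed by 0.01 on the log2 scale (95% interval -0.07 to 0.10, adjusted p = 0.885), whereas CSC exceeded NNK by 0.31 (SE 0.045, adjusted p = 1.11e-08) and BaP exceeded NNK by 0.29 (adjusted p = 1.54e-07). RRM2B was the 1 member called between CSC and BaP, lower in CSC by -0.23 (SE 0.065, adjusted p = 0.00879), beside 14.4% of all genes, and the other 7 members were at -0.17 to 0.36. Between CSC and NNK, 2 members were called against 21.3% of genes, CDKN1A and BTG2 (0.28, SE 0.11, adjusted p = 0.0443), and the BTG2 call was lost in 25 of 95 fits that each left out 1 sample, with edgeR (adjusted p = 0.104) and with DESeq2 (adjusted p = 0.109). GDF15, at 0.53 (adjusted p = 0.0512), was called there by edgeR (adjusted p = 0.0204), by DESeq2 (adjusted p = 0.0299) and with the replicate block (adjusted p = 0.0368). Between BaP and NNK, 4 were called against 9.63% of genes. These were CDKN1A, MDM2 (0.15, adjusted p = 0.0175), GDF15 (0.62, adjusted p = 0.0366) and ZMAT3 (-0.24, adjusted p = 0.00875). The MDM2 difference was lost without FAT1 BaP replicate 1 (adjusted p = 0.0519) and that of GDF15 in 11 of 95 such fits.

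CDKN1A rose in each genotype taken alone. In GFP cells the 3 DMSO samples had 169, 199.7 and 212 CPM, against 371, 439 and 398 with CSC, 328, 448 and 410.1 with BaP, and 374, 337 and 368 with NNK. In HCRED cells DMSO gave 118, 112 and 113 CPM, CSC 276, 259.9 and 258, BaP 219, 215 and 256, and NNK 262, 201 and 197. All exposed samples of both controls were therefore above their own DMSO samples, as they were in each line. CDKN2A knockout cells held the highest single sample of each treatment. They went from 225, 245 and 232 CPM in DMSO to 447, 462 and 487 with CSC, 501, 524 and 541 with BaP, and 437, 321 and 349 with NNK. Their range overlapped that of FAT1 cells in DMSO and that of GFP cells with NNK. PIK3CA cells began lowest, at 88.0, 107 and 95.2 CPM, and reached 265, 266 and 217 with CSC, 206, 214 and 203 with BaP, and 124, 194 and 145 with NNK. In FAT1 knockout cells the step was short with CSC, from 242, 197 and 191 CPM to 283, 292 and 269.8, and longer with BaP, to 370.0, 347 and 333. The DMSO mean was 194 ± 22.2 (SD, n = 3) in GFP, 209.8 ± 27.8 in FAT1 and 234 ± 10.05 in CDKN2A, against 114 ± 3.07 in HCRED, 99.9 ± 8.65 in NRF2, 161 ± 23.7 in FGFR1, 119 ± 24.6 in NRG1 and 96.8 ± 9.76 in PIK3CA. The first 3 share a knockout design and the last 5 a vector, so that arm and vector cannot be told apart.

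**Figure D3:**
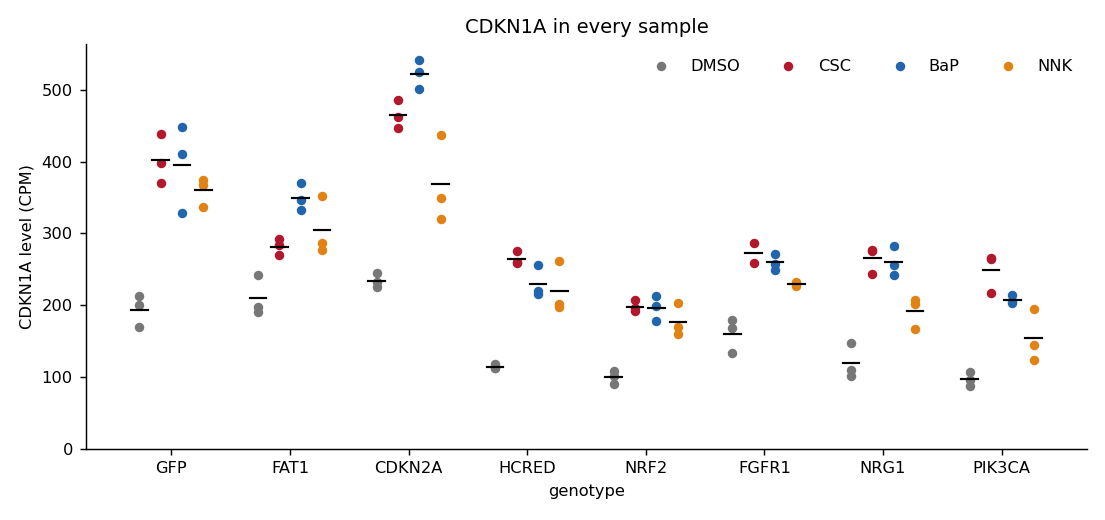
CDKN1A level in every sample, in CPM on a linear axis that starts at 0, by genotype and treatment, with a bar at the mean of each combination. Within each genotype every CSC, BaP and NNK sample lies above the DMSO samples, from 88.0 to 245 CPM in DMSO overall to as much as 541 CPM in CDKN2A cells with BaP.

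The log2 change of CDKN1A with CSC ranged from 0.47 in FAT1 (SE 0.096, limma-voom adjusted p = 0.000137) to 1.30 in PIK3CA (SE 0.11, adjusted p = 1.25e-15), with a median of 1.05 over the 8 genotypes. With BaP it ranged from 0.72 in FGFR1 (SE 0.12, adjusted p = 1.64e-05) to 1.17 in CDKN2A (SE 0.080, adjusted p = 5.19e-26), and with NNK from 0.52 in FGFR1 (SE 0.11, adjusted p = 0.001) to 0.96 in HCRED (SE 0.13, adjusted p = 3.7e-09). All 24 of these tests passed, and without PIK3CA NNK replicate 2 the NNK change in PIK3CA cells was lost (adjusted p = 0.0835). Over the 72 pairs of member and genotype, 19 passed with CSC (14 higher, 5 lower), against 16.3% of tests over all genes. With BaP 17 passed (14 higher, 3 lower) against 10.3%, and with NNK 12 (10 higher, 2 lower) against 10.1%. CDKN1A alone made up 8 of the calls with each chemical, so the pooled counts do not describe the members as a set. With the GC trend removed, 6 pairs passed with NNK, so CDKN1A was then no longer called in all 8 genotypes with that chemical.

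GDF15 passed with CSC in CDKN2A, FGFR1, PIK3CA and FAT1 cells, where the FAT1 call was lost in 5 of 6 fits that each left out 1 sample, the FGFR1 call in 2 of 5 and the CDKN2A call in 1 of 6. In CDKN2A cells its DMSO samples had 2.64, 5.13 and 8.12 CPM, against 14.8, 23.5 and 14.8 with CSC (log2 change 1.78, adjusted p = 0.0022) and 21.3, 38.2 and 23.7 with BaP (2.35, adjusted p = 5.64e-06), with no overlap. PIK3CA cells had 0.988, 6.92 and 1.89 CPM in DMSO and 11.3, 14.1 and 12.5 with CSC (1.97, adjusted p = 0.00315). In FGFR1 cells the values were 2.77, 5.89 and 13.0 CPM in DMSO and 16.4 and 20.03 with CSC (1.58, adjusted p = 0.00392). Those groups did not overlap either. With BaP GDF15 also passed in FGFR1 (1.76, adjusted p = 0.00549), FAT1 (1.56, adjusted p = 0.0107) and GFP cells (1.89, adjusted p = 0.0427), and with NNK in GFP cells (1.92, adjusted p = 0.0274). The GFP samples had 0.967, 3.84 and 1.55 CPM in DMSO against 9.60, 3.73 and 10.2 with BaP, which overlapped, and 7.67, 5.65 and 11.7 with NNK, and the 2 GFP calls were lost in 5 and 4 of 6 such fits. HCRED cells, by contrast, had 3.44, 4.32 and 2.95 CPM in DMSO and 3.31, 4.93 and 8.04 with CSC, 2.14, 4.05 and 6.19 with BaP, and 1.42, 8.22 and 2.27 with NNK, all overlapping, and no log2 change there passed (0.43, -0.07 and 0.07). The GDF15 changes of the 8 genotypes were not shown to differ, with F-test adjusted p-values of 0.928 for CSC, 0.887 for BaP and 0.991 for NNK.

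TP53I3 passed with CSC in HCRED cells, from 45.6, 59.0 and 48.2 CPM to 68.7, 68.3 and 77.4 (0.50, adjusted p = 0.0179), with BaP in FAT1 (0.77, adjusted p = 0.0106) and NRG1 (0.63, adjusted p = 0.0263), and with NNK in NRG1 (0.58, adjusted p = 0.0244). Its change was above 0 in all 8 genotypes with each chemical. The AEN rise with CSC was called in HCRED cells, from 6.89, 10.1 and 9.84 CPM to 19.1, 23.2 and 16.1 (1.14, adjusted p = 0.00994). RRM2B fell with CSC by 0.55 in GFP, 0.53 in FAT1, 0.46 in HCRED and 0.50 in PIK3CA and with BaP by 0.57 in FAT1, and its change with CSC was below 0 in all 8 genotypes, where in HCRED it turned to 0.072 with the GC trend removed. ZMAT3 fell in GFP cells with each chemical, from 88.9, 91.2 and 86.8 CPM in DMSO to 69.5, 59.0 and 68.1 with CSC, 57.6, 56.0 and 69.0 with BaP, and 52.4, 49.0 and 78.8 with NNK, without overlap, where genes lay wholly below DMSO in 16.1%, 14.5% and 14.1% of tests. It also fell with BaP in CDKN2A cells, from 115, 88.2 and 119 CPM to 70.8, 60.8 and 88.6, which met at the edge (-0.55, adjusted p = 0.0034). When 1 sample was left out, the calls of TP53I3 were lost in 2 or 3 of 6 fits each, that of AEN in 2, those of ZMAT3 in GFP cells in 1 or 2 and those of RRM2B in 2, except that RRM2B in PIK3CA cells and ZMAT3 in CDKN2A cells were kept. BTG2 fell with NNK in PIK3CA cells, from 10.9, 13.2 and 18.9 CPM to 5.66, 5.73 and 3.76 (-1.31, adjusted p = 0.0309), a call lost in 5 of the 6 fits that each left out 1 sample. Of the calls within genotypes, 10 of 19 with CSC, 10 of 17 with BaP and 7 of 12 with NNK were kept whichever sample was left out, and those include all 24 of CDKN1A but the 1 named above. DESeq2 called 9 pairs within genotypes with CSC, 9 with BaP and 8 with NNK, so it did not make many of these calls.

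**Figure D4:**
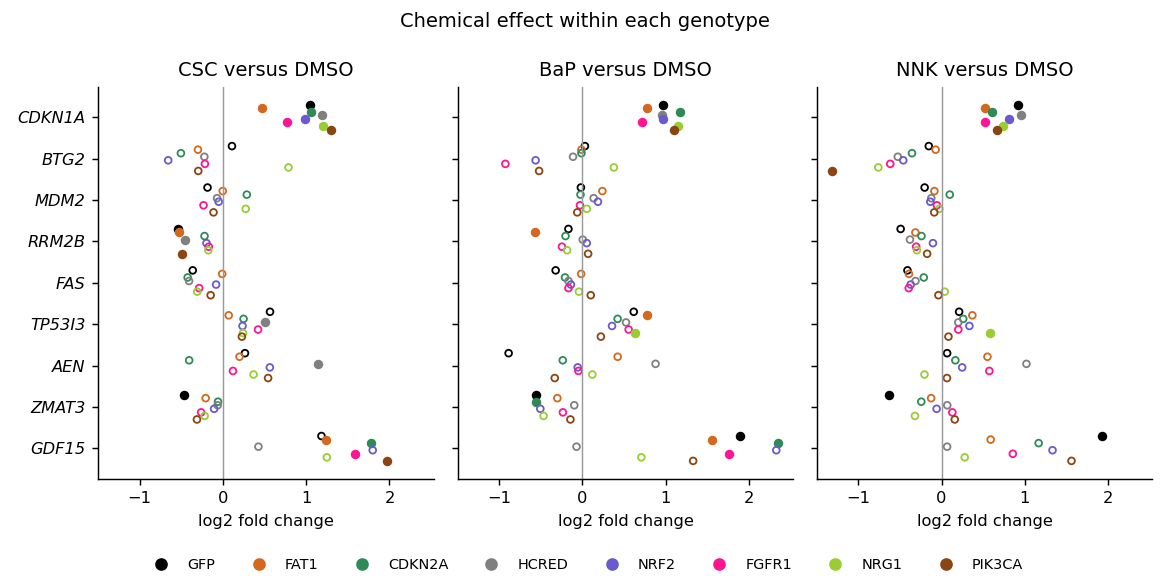
Log2 fold change of each of the 9 genes against DMSO within each genotype, a panel for each chemical, with filled points for a limma-voom adjusted p of at most 0.05. CDKN1A is filled and above 0 in all 8 genotypes with each chemical, GDF15 is filled in 4 genotypes with CSC, 4 with BaP and 1 with NNK, and MDM2 is filled in none.

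Whether a chemical acted differently between genotypes was tested directly. An F test of the 8 genotype-specific changes called 1 of 27 pairs of member and chemical, against 0.359% of such tests over all genes, and 5 had an unadjusted p under 0.05. The 1 was CDKN1A with CSC (F = 6.50, adjusted p = 0.000857), which edgeR and DESeq2 also called as their 1 member and which was kept whichever sample was left out. Against their own control, the CDKN1A change with CSC was smaller in FAT1 cells than in GFP cells by -0.61 (SE 0.15, adjusted p = 0.103) and in FGFR1 cells than in HCRED cells by -0.41 (SE 0.17, adjusted p = 0.706). None of the tests of a line's change against its control's, for 9 members, 6 lines and 3 chemicals, passed with limma-voom, where 15 had an unadjusted p under 0.05, beside 0.027% of tests over all genes. edgeR and DESeq2 called 0 as well, with 15 and 12 at an unadjusted p under 0.05. When only the 4 groups concerned entered the fit, the FAT1 difference for CDKN1A was -0.62 (adjusted p = 0.0261).

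Genotypes differed in member levels without any chemical. Against their control in DMSO, 10 of 54 pairs passed with limma-voom (8 higher, 2 lower), beside 14% of tests over all genes. By line, 26.3% of all genes were called in FAT1, 37.2% in CDKN2A, 7.16% in NRF2, 1.86% in FGFR1, 2.04% in NRG1 and 8.6% in PIK3CA cells. FAT1 knockout cells had 4 members higher. MDM2 stood at 387, 326 and 304 CPM against 269.7, 206 and 250.4 in GFP (0.47, SE 0.094, adjusted p = 0.000143), and FAS at 61.0, 59.5 and 65.6 against 33.8, 36.5 and 41.1 (0.69, adjusted p = 0.00203), without overlap in either gene. Over all genes and the 6 lines, 14.8% of tests had the line wholly above its control in DMSO and 12.9% wholly below. TP53I3 (0.84, adjusted p = 0.0131) and RRM2B (0.57, adjusted p = 0.00427) were the others, each lost in 2 of 6 fits that each left out 1 sample. In CDKN2A knockout cells TP53I3 had 44.0, 72.8 and 52.3 CPM against 22.2, 16.3 and 18.6 in GFP (1.48, adjusted p = 1.5e-07), while MDM2 fell, with 199.8, 198 and 211 CPM (-0.27, adjusted p = 0.0125, lost without GFP DMSO replicate 1 at an adjusted p of 0.104). NRF2 cells had FAS at 28.6, 26.9 and 30.2 CPM against 56.8, 44.6 and 57.1 in HCRED (-0.90, adjusted p = 0.00223), a call that DESeq2 did not make (adjusted p = 0.0762). NRG1 cells had AEN at 17.5, 25.5 and 22.1 CPM against 6.89, 10.1 and 9.84 (1.23, adjusted p = 0.0334), lost in 5 of 6 fits that each left out 1 sample. CDKN1A was higher in CDKN2A cells (0.24, adjusted p = 0.0316) and in FGFR1 cells (0.46, adjusted p = 0.0181), and each of these calls was lost in 4 of 6 such fits. DESeq2 called 4 of the 10, and beside FAS in NRF2 cells the calls it did not make were TP53I3 in FAT1 cells, CDKN1A and MDM2 in CDKN2A cells, CDKN1A in FGFR1 cells and AEN in NRG1 cells (adjusted p = 0.0694 to 0.452). PIK3CA cells had 0 members called, with 3 at an unadjusted p under 0.05, and edgeR and DESeq2 called 0 too, with 3 and 1 at an unadjusted p under 0.05.

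Over all 4 treatments, with treatment in the model, 24 of 54 pairs passed (16 higher, 8 lower), beside 31.1% of tests over all genes. The FAT1 knockout had 5 members higher and 1 lower. MDM2 ranged over 268, 339 and 412 CPM (lowest, median and highest of 12) against 181, 227 and 269.7 in GFP, which met only at the edge (0.62, SE 0.050, adjusted p = 1.75e-18). FAS ranged over 39.3, 58.6 and 65.6 CPM against 18.8, 30.5 and 41.1 (0.87, SE 0.091, adjusted p = 1.39e-13). TP53I3 (0.78, SE 0.13, adjusted p = 7.94e-07), RRM2B (0.54, SE 0.078, adjusted p = 1.22e-08) and GDF15 (0.95, SE 0.29, adjusted p = 0.00482) were also higher, and CDKN1A was lower (-0.20, SE 0.060, adjusted p = 0.00325). The members' median was 0.54 in this comparison and the median of all genes 0.028, with 51.8% of genes called.

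CDKN2A knockout cells had 6 members higher, where 60.1% of all genes were called. TP53I3 ranged over 44.0, 70.3 and 73.4 CPM against 16.3, 24.1 and 40.6 in GFP (1.34, SE 0.11, adjusted p = 1.01e-16, 2.53-fold). All 12 knockout samples thus lay above all 12 control samples, which held in 1.3% of tests pooled over all genes and the 6 lines. The share in CDKN2A cells alone is not given. GDF15 ranged over 2.64, 13.4 and 38.2 CPM against 0.967, 5.19 and 11.7 (1.32, SE 0.28, adjusted p = 5.28e-05), with overlap. AEN (0.69, SE 0.17, adjusted p = 0.000482), ZMAT3 (0.42, SE 0.072, adjusted p = 8.31e-07) and CDKN1A (0.22, SE 0.058, adjusted p = 0.000831) followed, and CDKN1A was at 0.082 (adjusted p = 0.173) with the GC trend removed. RRM2B (0.18, adjusted p = 0.0403) was lost in 12 of 24 fits that each left out 1 sample and with edgeR (adjusted p = 0.0986) and DESeq2 (adjusted p = 0.0928). MDM2 was at -0.10 (95% interval -0.20 to 0.01, adjusted p = 0.131).

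The overexpression lines had fewer calls each. NRF2 cells had 3 members lower and 21.1% of genes called, with FAS at 11.7, 27.1 and 30.2 CPM, wholly below the 34.8, 45.0 and 57.1 of HCRED (-0.82, adjusted p = 1.04e-08). Pooled over all genes and the 6 lines, 1.32% of tests had the line wholly below its control. TP53I3 (-0.54, SE 0.10, adjusted p = 2.26e-05) and CDKN1A (-0.29, adjusted p = 0.000647) were the other members lower in NRF2 cells. FGFR1 cells (13.9% called) had GDF15 at 2.77, 15.7 and 25.3 CPM against 1.42, 3.75 and 8.22 in HCRED, an overlapping but shifted range (1.75, SE 0.29, adjusted p = 3.56e-06, 3.37-fold), and CDKN1A at 0.18 (adjusted p = 0.0453), which was lost in 14 of 23 fits that each left out 1 sample. PIK3CA cells (28.2% called) had BTG2 at 3.76, 9.77 and 18.9 CPM against 10.96, 17.1 and 25.8 (-0.80, adjusted p = 1.94e-05), TP53I3 at -0.34 (adjusted p = 0.00245), CDKN1A at -0.24 (adjusted p = 0.0094) and GDF15 at 0.93 (adjusted p = 0.015). NRG1 cells (11.5% called) had MDM2 lower (-0.21, SE 0.062, adjusted p = 0.0138), and GDF15 (0.91, adjusted p = 0.0345) and AEN (0.53, adjusted p = 0.0421) higher, where GDF15 was lost in 8 and AEN in 14 of 24 such fits. GDF15 was thus past the threshold, and higher, in 5 of the 6 lines, beside 31.1% of tests over all genes called in either direction. It was not called in NRF2 cells. The lines of an arm share 1 control, so these calls are not independent, and the control medians of GDF15 were low (5.19 CPM in GFP, 3.75 in HCRED).

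**Figure D5:**
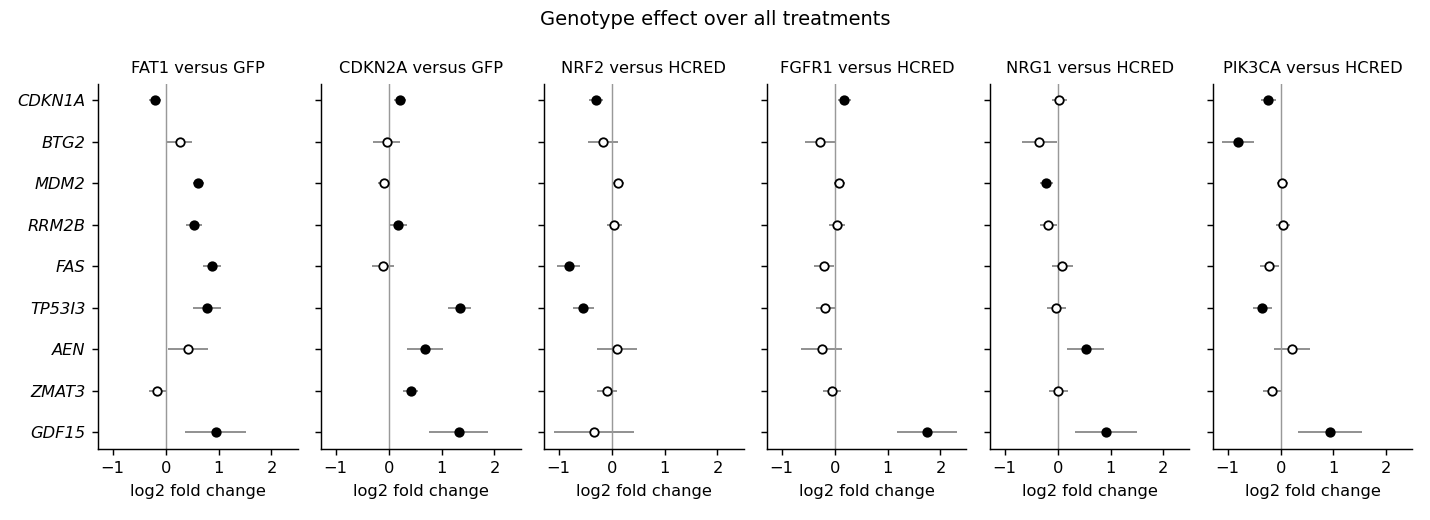
Log2 fold change of each of the 9 genes in each line against its own control over all 4 treatments, with 95% intervals and filled points for a limma-voom adjusted p of at most 0.05. FAT1 cells are filled above 0 for MDM2, GDF15, FAS, TP53I3 and RRM2B and below 0 for CDKN1A, and the highest value for TP53I3 is 1.34 in CDKN2A cells.

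The use of strand in the counting is not stated, so reads of genes whose exons overlap on opposite strands cannot be told apart. Among the members, the largest such overlap was 380 bases of FAS with ACTA2, which had 232 counts in all samples together beside 3611 of FAS. FAM228B shared 80 bases with TP53I3 and had 590 counts beside 4528, CPM (the gene for carboxypeptidase M) shared 133 with MDM2 and had 1042 beside 22200, and DINOL shared 146 with CDKN1A and had 12 beside 21709.

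Other genes of the pathway were followed in lists of known function, which were not refitted with the GC trend removed. Of 12 cell cycle genes that p21 is known to repress through RB-family proteins, 10 fell and 0 rose with CSC (list median -0.36), 10 fell and 0 rose with BaP (-0.33), and 9 fell and 1 rose with NNK (-0.22). Of all genes tested, 26.6% were called lower and 27.1% higher with CSC, 24.1% and 24.7% with BaP, and 25% and 24.6% with NNK. TOP2A, the topoisomerase of dividing cells, fell by 0.67 with CSC (SE 0.025), 0.53 with BaP (SE 0.025) and 0.51 with NNK (SE 0.026). CCNA2, the S-phase cyclin, fell by 0.48, 0.40 and 0.31 (SE 0.058 each). The 1 gene that rose with NNK was MYBL2, at 0.32 (SE 0.051).

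Of 22 other p53 targets of arrest and repair, 8 rose and 7 fell with CSC, 11 rose and 5 fell with BaP, and 9 rose and 5 fell with NNK. PLK3, a stress-responsive kinase, rose by 0.999 (SE 0.16), 0.63 (SE 0.17) and 0.66 (SE 0.17) with CSC, BaP and NNK, and FUCA1, a lysosomal fucosidase, by 0.74 (SE 0.067) with CSC and 0.41 (SE 0.068) with BaP. Of the 10 apoptosis targets tested, 5 rose and 3 fell with CSC, 4 rose and 4 fell with BaP, and 4 rose and 2 fell with NNK. PIDD1, which nucleates a caspase-activating complex, rose by 0.76, 0.82 and 0.58 (SE 0.11 each), and BAX, which permeabilizes mitochondria, by 0.47, 0.49 and 0.46 (SE 0.10 each). PMAIP1, which encodes NOXA, fell by 0.43 with CSC, 0.32 with BaP and 0.56 with NNK. The shares of these lists that were called are to be read against 53.6%, 48.7% and 49.7% of all genes.

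Of 9 genes of the integrated stress response, a pathway that also induces GDF15 through ATF4 and DDIT3, 6 rose with CSC, 7 with BaP and 5 with NNK, and 0 fell. The shares of all genes called higher were 27.1%, 24.7% and 24.6%, and those called lower 26.6%, 24.1% and 25%. TRIB3 rose by 0.87 (SE 0.066), 0.76 (SE 0.068) and 0.61 (SE 0.068), and PPP1R15A by 0.54 (SE 0.072), 0.97 (SE 0.072) and 0.63 (SE 0.073).

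By line, the shares of all genes called in either direction were 60.1% in CDKN2A, 51.8% in FAT1, 28.2% in PIK3CA, 21.1% in NRF2, 13.9% in FGFR1 and 11.5% in NRG1 cells. The cell cycle list had 9 of 12 genes lower and 1 higher in CDKN2A cells, where TOP2A was at -1.14 (SE 0.027), 6 lower and 1 higher in FAT1 cells, and 8 higher and 0 lower in PIK3CA cells, where MYBL2 was at 0.74 (SE 0.054). CDKN1A, given above, was higher in the first of these lines and lower in the other two. Of the apoptosis targets, 6 of the 9 tested were higher in FAT1 cells and 0 lower, PIDD1 among them at 0.78 (SE 0.14). Genes of the integrated stress response were higher in 5 of 9 cases in both CDKN2A and FGFR1 cells, with 0 lower, and ATF3 was at 1.31 (SE 0.17) in FGFR1 cells, where GDF15 was at 1.75. In FAT1 cells 5 of these 9 were lower and 1 higher, while GDF15 was higher. NRG1 cells had 4 of the 9 higher and 0 lower, PIK3CA cells 3 higher and 1 lower, and NRF2 cells 0 higher and 3 lower. GDF15, given above, was higher in NRG1 and PIK3CA cells and was not called in NRF2 cells.

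The members did not vary alike over the 32 combinations of genotype and treatment. Of the variance of CDKN1A in log2 CPM, 48.1% lay between genotypes, 43.9% between treatments, 3.79% in their combination and 4.16% between replicates. Treatment took 26.5% for GDF15 and 22.7% for RRM2B, and 3.30% to 12.8% for the other members, whereas genotype took 66.7% for MDM2, 63.4% for TP53I3 and 62.5% for FAS. The share between replicates reached 37.9% in RRM2B and 36.0% in AEN. CDKN1A and GDF15 were both highest in CDKN2A cells with BaP, and FAS, BTG2 and RRM2B in FAT1 cells with DMSO.

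Across the 32 combination means, which share genotypes, treatments and the GC trend, Pearson's r between members was highest for CDKN1A and GDF15 (0.681), was 0.56 for MDM2 and RRM2B and 0.546 for TP53I3 and AEN, and was -0.07 for CDKN1A and MDM2 and -0.50 for CDKN1A and RRM2B. Outside the members, the genes most like CDKN1A were RBCK1 (r = 0.910), MMP15 (0.893) and BSG (0.891). Those most like GDF15 were TMC6 (0.787), TRIB3 (0.767) and FLNA (0.765), and those most like MDM2 were TBK1 (0.834) and HADHB (0.815). TP53I3 was followed most closely by TGFB1 (0.814), FAS by PPFIBP1 (0.793), ZMAT3 by FAM20B (0.903), BTG2 by DHX40 (0.813), RRM2B by HNRNPH1 (0.795) and AEN by TNFRSF12A (0.799). These correlations describe the 32 means and carry no test.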

How the data were processed

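RNA of 95 AALE samples was profiled by SFL single-end sequencing after ribosomal RNA depletion. Per the labels and methods, the authors trimmed adapters (Cutadapt 1.12), checked reads (FastQC 0.11.5), aligned them to hg19 (STAR 2.5.2b) and deposited whole-number counts per RefSeq gene (featureCounts, Subread). No molecular identifiers are described for these libraries, so counting intervals cover counting error only, and the use of strand is not stated. SFL recovers fragments from all of a transcript, so long genes collect more reads.

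From the counts, libraries were scaled by TMM (edgeR 4.0.16) and fitted with limma-voom (limma 3.58.1, R 4.3.3) after genes with a mean count of at most 1 in the fitted samples were removed. P-values were adjusted by the Benjamini-Hochberg method over all genes tested, with a threshold of 0.05. Groups came from the sample labels. Chemicals were compared with DMSO over all genotypes (genotype and treatment in the model) and within each genotype, lines with their control in DMSO and over all treatments, and changes between genotypes by interaction terms and an F test. Figures and printed levels are CPM, on TMM-scaled library sizes, and log2 levels used a prior count of 2. The GC content and length trend was removed per sample by loess (span 0.3). As alternatives, the fits were repeated with edgeR (quasi-likelihood), with DESeq2 (1.42.0) or its size factors, with other filters, with the replicate number as a block, with other samples in the fit, and without each sample or genotype in turn. The fits were tested on simulated counts. Likeness was Pearson's r over the 32 combination means, among genes that averaged 20 counts or more.

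The 9 members and the gene lists were chosen with earlier results of these data known. The rule was to follow all members in every comparison, where called members are named and others may be given by their range, and to name of each list at most the 4 genes with the largest change among those past 0.05 that averaged 10 counts or more. The other platforms of the study were not used here. Some genes, and 1 list of genes, are not reported here. Over 94 pairs of replicates, none held identical counts, and their chi-square per degree of freedom was 1.14 to 2.82.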

Additional observations from a re-analysis of the deposited data

Results flagged for a closer look

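The change of CDKN1A with CSC differed between genotypes in a limma-voom F test of the interaction (F = 6.50, adjusted p = 0.000857). The log2 change was 0.47 in FAT1 knockout cells and 0.77 in FGFR1 cells, and 0.99 to 1.30 in the other 6 genotypes. All 8 changes were above 0. No line differed from its own control past the threshold in that fit, the nearest being FAT1 against GFP (-0.61, SE 0.15, adjusted p = 0.103).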

How the results depend on the processing

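Removing the GC content and length trend changed the most. Members called then numbered 3 with CSC (7 as reported), 3 with NNK (7) and 0 between CSC and BaP (1), and calls within genotypes 11 with CSC (19), 11 with BaP (17) and 6 with NNK (12). The 6 with NNK are fewer than the 8 CDKN1A calls reported, so some of those were lost. Among results called with or without the trend, directions turned with CSC for ZMAT3 (0.087), RRM2B (0.013), FAS (0.072) and MDM2 (0.25), and with BaP for RRM2B (0.165). With NNK they turned for ZMAT3 (0.134), RRM2B (0.074), FAS (0.045) and MDM2 (0.178). In HCRED cells with CSC they turned for RRM2B (0.072) and MDM2 (0.29). No other alternative turned the direction of a result called in either fit. Results called in neither fit were not counted, such as FAS (-0.10 to 0.159) and AEN (0.027 to -0.148) with BaP when the trend was removed. What causes the trend was not tested.

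DESeq2 called 9 pairs within genotypes with CSC (19 as reported), 9 with BaP (17), 8 with NNK (12) and 4 line differences in DMSO (10). DESeq2 and edgeR each called 2 members between CSC and BaP. Restricting the test to the 10000 most variable genes (by median absolute deviation) gave 3 with BaP (5), 0 between CSC and BaP and 2 between BaP and NNK (4), where fewer genes were tested. Keeping every gene with at least 1 read gave 1 between CSC and NNK (2). Between CSC and BaP, leaving out a genotype gave 2 (CDKN2A), 0 (HCRED), 2 (NRG1) and 0 (PIK3CA). Between CSC and NNK it gave 1 without HCRED, FGFR1, NRG1 or PIK3CA, and between BaP and NNK 2 without FAT1 or NRF2. With only the 4 groups concerned in the fit, 1 interaction was called (0 as reported).

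Leaving out 1 sample at a time gave 6 to 7 calls with CSC, 4 to 5 with BaP, 6 to 7 with NNK, 1 to 2 between CSC and BaP, 1 to 3 between CSC and NNK, and 3 to 5 between BaP and NNK. Within genotypes it gave 17 to 20 with CSC, 15 to 18 with BaP and 10 to 13 with NNK. For lines it gave 8 to 11 in DMSO and 22 to 26 over all treatments, for interactions 0 to 0 and for the F test 1 to 1.

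With the replicate number as a block, counts were 7, 5 and 6 for CSC, BaP and NNK, 1, 3 and 4 between chemicals, 21, 21 and 13 within genotypes, 11 and 24 for lines, 0 for interactions and 1 for the F test. The numbers did not pair the samples, as the mean correlation of same-numbered deviations was -0.034 to 0.116 over 48 comparisons and in 0 of them did all pairs exceed 0.1. Depth limits GDF15, BTG2 and AEN most.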
